A study of Arabidopsis thaliana with 6 samples.

Results

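The genes described here are 10 *Arabidopsis* loci that make, regulate or act on indole glucosinolates, taken by locus identifier from a table of 33560 genes. They are the core enzymes *CYP79B2* (AT4G39950), *CYP79B3* (AT2G22330), *CYP83B1* (AT4G31500) and *SUR1* (AT2G20610), the side-chain enzymes *CYP81F2* (AT5G57220) and *CYP81F4* (AT4G37410), the transcription factors *MYB34* (AT5G60890), *MYB51* (AT1G18570) and *MYB122* (AT1G74080), and the β-glucosidase *PYK10* (AT3G09260). RNA was sequenced from root tips of about 2 mm, cut from seedlings aged 5 days that were either Columbia-0, the wild type, or *bron-2*. *bron-2* carries a T-DNA insertion in *BRON* (AT1G75710), a transcription factor gene, and is a single line. Seedlings of both genotypes grew untreated on sucrose medium in long days, and each genotype has 3 biological replicates, each a pool of plates. Levels are FPKM, in which the authors scaled the fragments of each gene by transcript length and library size.

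Indole glucosinolates are sulfur-rich defence compounds that plants of the cabbage family make from tryptophan. *CYP79B2* and *CYP79B3* convert tryptophan to indole-3-acetaldoxime, which is also a source of camalexin and of auxin, and *CYP83B1* and the C-S lyase *SUR1* carry the aldoxime on into the glucosinolate core. CYP81F enzymes then modify the indole ring, and *MYB34*, *MYB51* and *MYB122* activate the pathway genes. *PYK10* is an abundant root β-glucosidase that is stored in ER bodies, spindle-shaped compartments of the endoplasmic reticulum, and that can release the active products from indole glucosinolates when cells are broken.

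The values of 3 libraries are given in the order of replicates 1, 2 and 3 throughout. *BRON* itself measured 16.1 to 17.9 FPKM in the wild-type libraries and 0.925 to 1.25 FPKM in those of *bron-2*, in the direction their labels give. The number of reads is not given by FPKM, but steps between the lowest values put the relative depth at 0.978 to 1.11 in the wild type and at 1.20 to 1.26 in *bron-2*, so the mutant libraries were the deeper ones. Markers of older root tissue were high in these root tips. Their summed level was 1359 to 1813 FPKM in the wild type and 1755 to 1962 FPKM in *bron-2*, and 0 of 6 were called, where 9.79% of all tested genes were. Most of this sum was *CASP1*, with overlapping libraries and means of 965 FPKM in the wild type and 1184 FPKM in *bron-2*. The log2 fold change was above 0 for 3 of the 6 markers and below 0 for 3. The 5 markers of the root apex summed to 36.0 to 40.7 FPKM in the wild type and to 34.3 to 39.1 FPKM in *bron-2*. The largest part was *SCR*, with means of 25.0 FPKM in the wild type and 26.1 FPKM in *bron-2*. The other apex markers had lower means in *bron-2*, at 75.3% of the wild type for *PLT1*, 56.3% for *PLT2*, 37.5% for *WOX5* and 85.9% for *SMB*. *PLT2*, a stem cell niche regulator, had a log2 fold change of -0.40 (limma unadjusted p = 0.0336), and *SMB* was not called (limma unadjusted p = 0.121). *PLT1* and *WOX5* were too low to be tested. *PLT1* did not overlap between genotypes, with 0.780, 0.819 and 0.930 FPKM in the wild type and 0.506, 0.766 and 0.632 FPKM in *bron-2*. Of all tested genes, 8.67% were lower without overlap. The quiescent centre gene *WOX5* overlapped between genotypes, with 0.300, 0.460 and 0.522 FPKM in the wild type and 0, 0.367 and 0.114 FPKM in *bron-2*. A fit without a filter gave log2 fold changes of -0.18 for *PLT1* (limma unadjusted p = 0.102) and -0.31 for *WOX5* (limma unadjusted p = 0.0499). The 3 shoot markers summed to 21.9 to 35.1 FPKM in the wild type and to 22.0 to 29.6 FPKM in *bron-2*, with the Rubisco subunit gene *RBCS1A* called lower (log2 fold change -0.64, limma unadjusted p = 0.0324). The part of these markers in the results below was not tested. RNA came from whole tips, so fewer cells that express a gene and less of its RNA per cell cannot be told apart.

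In *bron-2*, the core enzyme genes *CYP79B2* and *CYP83B1* and the regulator *MYB34* were higher and *PYK10* was lower than in the wild type. The changes were modest, from 0.35 to 0.60 on the log2 scale for the 3 higher genes and -0.29 for *PYK10*. The other 5 tested genes, *CYP79B3*, *SUR1*, *CYP81F4*, *MYB51* and *MYB122*, overlapped between genotypes, and *CYP81F2* was too low to be tested. The 17107 genes that averaged 1 FPKM or more were compared by limma on log2(FPKM + 1), and a gene was called at an unadjusted p-value under 0.05, the threshold the authors set. Thus 4 of the 9 tested members were called, against a background of 9.79% of all tested genes. The members were chosen with earlier results of these data known, so this count is a description and not a test. The 3 called higher stand beside 4.03% of all genes and the 1 called lower beside 5.76%. After Benjamini-Hochberg adjustment over all tested genes, 0 of the 9 members passed 0.05 in limma (smallest adjusted p = 0.300), and 0.0818% of all genes did. The same 4 genes were those whose libraries did not overlap between genotypes, 3 higher (7.06% of all genes) and 1 lower (8.67% of all genes). With 3 libraries against 3, an exact permutation test cannot go below p = 0.1. The median log2 fold change of the 9 tested members was 0.17, and that of all tested genes was -0.000995.

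**Figure D1:**
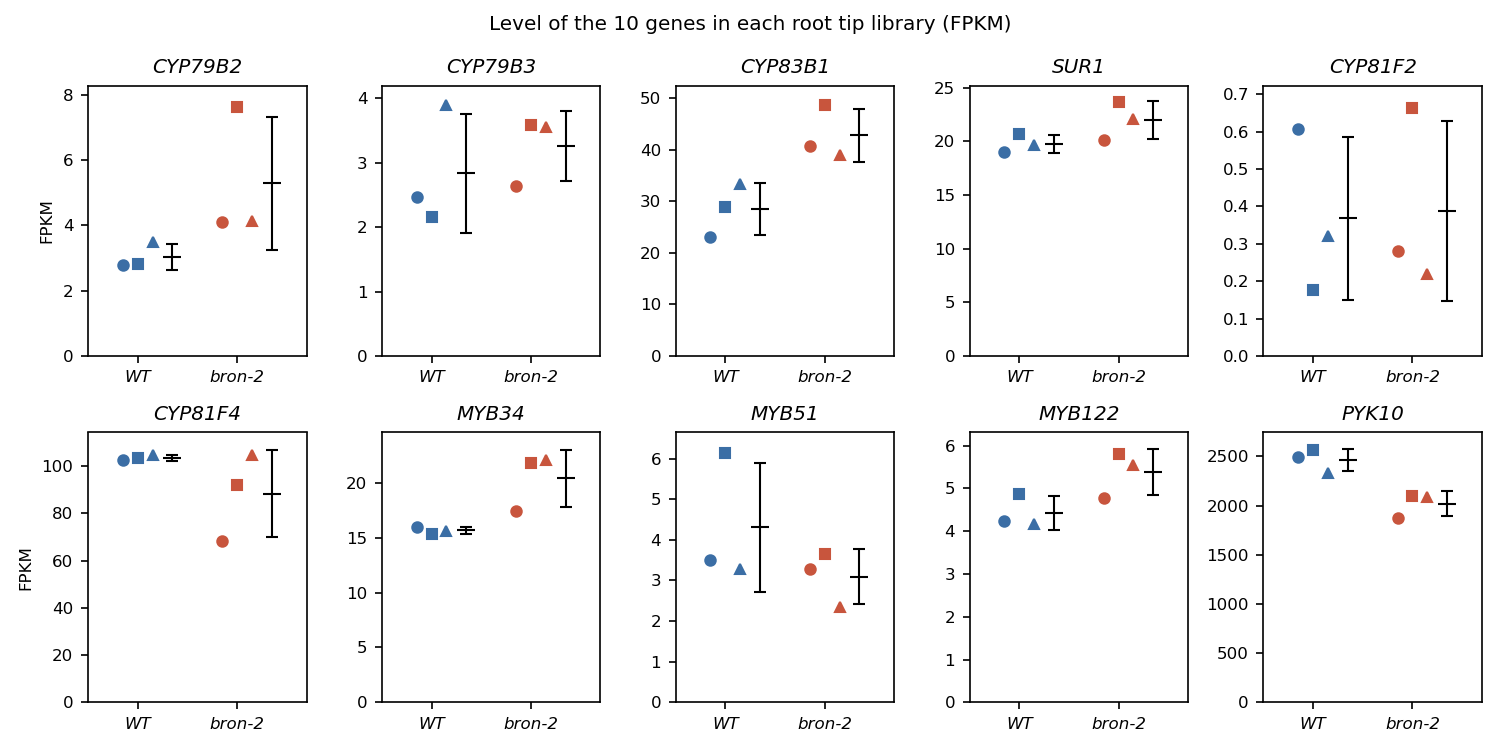
Level in FPKM (vertical axes from 0, a separate scale for each gene) of the 10 genes in the wild type (WT, blue) and *bron-2* (red), with replicate 1 as a circle, 2 as a square and 3 as a triangle, and the mean ± SD of the 3 libraries in black. All *bron-2* libraries lie above all wild-type libraries for *CYP79B2*, *CYP83B1* and *MYB34* and below them for *PYK10*, while the other 6 genes overlap.

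The members spanned a wide range of levels. In the wild type *PYK10* had a mean of 2463 FPKM and ranked 16 among all genes, followed by *CYP81F4* at 103.6, *CYP83B1* at 28.5, *SUR1* at 19.8, *MYB34* at 15.6, *MYB122* at 4.43, *MYB51* at 4.31, *CYP79B2* at 3.03, *CYP79B3* at 2.84 and *CYP81F2* at 0.368 FPKM. The neighbours *MYB122* and *MYB51*, *MYB51* and *CYP79B2*, and *CYP79B2* and *CYP79B3* overlapped between wild-type libraries, and the other neighbours did not. The first step of the core pathway was therefore listed at a lower level per length than the later steps catalysed by *CYP83B1* and *SUR1*. In *bron-2* the order of the first 5 genes was the same, though *SUR1* (22.0 FPKM) and *MYB34* (20.4 FPKM) now overlapped, and *CYP79B2* stood above *MYB51*.

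The upstream sequences of the genes that were called, and of *SUR1* for contrast, are shown as 250 bases ending just before the annotated start, 5′ to 3′ on the strand of the gene. They were read from the RefSeq TAIR10.1 genome, in which all 10 members have a locus, and the windows and motifs were chosen after the expression values were seen. Capitals mark the G-box (CACGTG), the W-box core (TTGAC, or GTCAA where it lies on the other strand) and the TATA box core (TATAAA, or TTTATA on the other strand). The windows lie at chr4:18524792-18525041 (plus strand) for *CYP79B2*, chr4:15275405-15275654 (minus strand) for *CYP83B1*, chr5:24494041-24494290 (plus strand) for *MYB34*, chr2:8880441-8880690 (minus strand) for *SUR1* and chr3:2843782-2844031 (minus strand) for *PYK10*.
CYP79B2: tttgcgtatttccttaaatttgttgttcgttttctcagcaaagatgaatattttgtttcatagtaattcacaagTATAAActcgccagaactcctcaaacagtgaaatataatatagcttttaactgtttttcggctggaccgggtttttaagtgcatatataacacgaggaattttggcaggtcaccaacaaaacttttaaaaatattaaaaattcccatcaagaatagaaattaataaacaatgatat
CYP83B1: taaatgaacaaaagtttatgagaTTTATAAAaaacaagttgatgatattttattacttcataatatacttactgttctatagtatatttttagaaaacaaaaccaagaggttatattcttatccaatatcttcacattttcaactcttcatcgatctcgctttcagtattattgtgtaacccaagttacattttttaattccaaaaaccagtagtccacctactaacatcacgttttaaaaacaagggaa
MYB34: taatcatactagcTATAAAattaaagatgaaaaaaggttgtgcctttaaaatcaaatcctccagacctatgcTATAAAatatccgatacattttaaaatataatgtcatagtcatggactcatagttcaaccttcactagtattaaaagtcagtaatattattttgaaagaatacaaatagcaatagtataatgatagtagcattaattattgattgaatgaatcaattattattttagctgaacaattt
SUR1: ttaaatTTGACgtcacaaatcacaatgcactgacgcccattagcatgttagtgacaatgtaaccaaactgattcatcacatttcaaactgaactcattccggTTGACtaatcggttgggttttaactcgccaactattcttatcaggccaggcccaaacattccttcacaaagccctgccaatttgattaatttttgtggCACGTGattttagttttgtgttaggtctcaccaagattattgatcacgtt
PYK10: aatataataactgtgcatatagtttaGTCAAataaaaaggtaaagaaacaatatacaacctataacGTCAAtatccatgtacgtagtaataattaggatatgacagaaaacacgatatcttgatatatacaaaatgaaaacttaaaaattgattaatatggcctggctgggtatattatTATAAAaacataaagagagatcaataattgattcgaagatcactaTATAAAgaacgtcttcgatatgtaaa

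Searched on both strands, the G-box was present in 1 of the 10 members' windows, that of *SUR1*. It was in 6.49% of all 27443 windows taken in this way from protein-coding genes of the nuclear chromosomes. The G-box of *SUR1* began 50 bases before the start. Each G-box is also an E-box (CANNTG), which was found in *SUR1*, *MYB51* and *MYB122*, 3 of 10 members, and in 55.3% of all windows. The W-box core was in 5 of 10 members, namely *SUR1*, *CYP81F2*, *CYP81F4*, *MYB51* and *PYK10*, and in 44.9% of all windows, with its 2 matches in *PYK10* beginning 224 and 184 bases before the start. An AC element core (ACCNACC), the letters of a site type bound by plant MYB proteins, was in 0 of 10 members and in 6.10% of all windows. The 3 genes called higher in *bron-2*, and *CYP79B3*, held none of these 4 motifs. TATAAA occurred in 7 of 10 members and in 47.3% of all windows, and its second match in *PYK10* began 26 bases before the start. Such matches describe these letters in these windows only.

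Of the paired genes for the first step, *CYP79B2* was called and *CYP79B3* was not, and their ratio is compared further on. *CYP79B2* measured 2.78, 2.81 and 3.49 FPKM in the wild type and 4.09, 7.62 and 4.14 FPKM in *bron-2*. Every mutant library lay above every wild-type library, and *bron-2* replicate 2 was by far the highest. The means were 3.03 ± 0.404 FPKM and 5.28 ± 2.02 FPKM (SD, n = 3 each), with a log2 fold change of 0.60 (standard error 0.21, limma unadjusted p = 0.0243, Benjamini-Hochberg adjusted p = 0.433). Without *bron-2* replicate 2 the log2 fold change was 0.35 (limma unadjusted p = 0.0492), and the call was lost without wild-type replicate 1 (0.56, limma unadjusted p = 0.0584) or wild-type replicate 2 (0.56, limma unadjusted p = 0.0660).

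*CYP79B3*, the second enzyme for this step, had 2.46, 2.16 and 3.89 FPKM in the wild type and 2.63, 3.58 and 3.56 FPKM in *bron-2*. The genotypes overlapped, with the highest value in wild-type replicate 3. The log2 fold change of *CYP79B3* was 0.17, with a 95% interval from -0.28 to 0.61 (limma unadjusted p = 0.411), so a change of the size seen for *CYP79B2* lies within the interval. The coding sequences of *CYP79B2* and *CYP79B3* share 78.1% of aligned bases with no identical run over 32 bases, shorter than the 100-base reads. *CYP79B2* lies on chromosome 4 from 18525042 to 18527602 (plus strand, 3 exons) and *CYP79B3* on chromosome 2 from 9488413 to 9491404 (plus strand, 2 exons), in TAIR10.1.

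*CYP83B1* uses the aldoxime made by these enzymes and commits it to glucosinolates. Its level was 23.2, 29.0 and 33.4 FPKM in the wild type and 40.7, 48.6 and 39.1 FPKM in *bron-2*. The genotypes did not overlap, although the wild-type libraries spread over a wider range than the gap between the genotypes. The mean rose from 28.5 ± 5.12 to 42.8 ± 5.11 FPKM (SD, n = 3 each), a log2 fold change of 0.58 (standard error 0.15, limma unadjusted p = 0.0043, Benjamini-Hochberg adjusted p = 0.300), and the call was kept in 13 of 13 alternative analyses. *CYP83B1* occupies chromosome 4 from 15273410 to 15275404 on the minus strand and has 2 exons.

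*SUR1* follows *CYP83B1* in the pathway and cleaves the sulfur conjugate. It measured 19.0, 20.7 and 19.7 FPKM in the wild type, compared with 20.1, 23.6 and 22.1 FPKM in *bron-2*. Here *bron-2* replicate 1 fell inside the wild-type range, and the log2 fold change was 0.14, with a 95% interval from -0.07 to 0.35 (limma unadjusted p = 0.163). The gene lies on chromosome 2 from 8877887 to 8880440 (minus strand, 7 exons). Within each library, the log2 ratio of *SUR1* to *CYP83B1* was -0.49 ± 0.23 in the wild type and -0.93 ± 0.12 in *bron-2* (SD, n = 3 each). The ratio was lower in every mutant library than in every wild-type one (difference -0.44, exact permutation test, two-sided, p = 0.1, 0.2 after adjustment over the 4 pairs of genes compared).

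The other 10 genes of the indole pathway, which conjugate glutathione, add glucose and sulfate and modify the ring, were all tested. Of these, 2 were called higher (4.03% of all tested genes) and 0 lower (5.76% of all tested genes), and their median log2 fold change was 0.02. *GSTF9*, a glutathione transferase proposed to act after *CYP83B1*, had 164.7, 172.7 and 209 FPKM in the wild type and 242, 277 and 261 FPKM in *bron-2*. It was higher in every mutant library, with a log2 fold change of 0.52 (limma unadjusted p = 0.0014, Benjamini-Hochberg adjusted p = 0.239), called in 13 of 13 alternatives. *GSTF10*, its neighbour in function and the highest gene of this list at 856 FPKM in the wild type, had a log2 fold change of -0.09 (limma unadjusted p = 0.316). *UGT74B1*, which adds the glucose, went from 15.3 to 18.1 FPKM (log2 fold change 0.23, limma unadjusted p = 0.0363). That call was lost in 4 of the 6 analyses that left out a library, namely wild-type replicate 1 or 2 or *bron-2* replicate 1 or 2 (limma unadjusted p = 0.0643 to 0.140).

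Of the side-chain enzymes, *CYP81F4*, which acts at the ring nitrogen position of the indole, was the second highest member. Its values of 102.4, 103.5 and 104.8 FPKM in the wild type were nearly equal, whereas *bron-2* gave 68.2, 92.2 and 104.7 FPKM. The mutant libraries thus ran from well below the wild type to within its range. The log2 fold change was -0.25, with a 95% interval from -0.59 to 0.09 (limma unadjusted p = 0.128), and without *bron-2* replicate 3 the gene passed the threshold (-0.38, limma unadjusted p = 0.0248). Leaving out *bron-2* replicate 1 instead brought the log2 fold change to -0.08 (limma unadjusted p = 0.431).

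*CYP81F4* lies on chromosome 4 from 17590772 to 17592920 (plus strand, 2 exons), and 81.5% of its 100-base transcript windows also fall in AT4G37409, a gene annotated on the minus strand. AT4G37409 was listed at 0 to 0.241 FPKM. The sources do not state that strand was used in counting, so reads of these overlapping genes may not have been told apart. The coding sequence of *CYP81F4* shares 81.1% of aligned bases with that of *CYP81F3*, its upstream neighbour, with a longest identical run of 35 bases. *CYP81F2* (chromosome 5 from 23187840 to 23189902, plus strand, 3 exons), the enzyme known from pathogen-induced indole glucosinolates in leaves, had listed values of 0.607, 0.177 and 0.320 FPKM in the wild type and 0.281, 0.662 and 0.220 FPKM in *bron-2*. These levels were under the limit of 1 FPKM for testing, the genotypes overlapped widely, and the fit without a filter gave a log2 fold change of 0.02 (standard error 0.16, limma unadjusted p = 0.908). The log2 ratio of *CYP81F4* to *CYP81F2* within libraries overlapped between genotypes (difference -0.27, exact permutation test, two-sided, p = 0.3).

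Of the MYB regulators, *MYB34*, which is the main activator of the pathway in roots, was both the highest and the only one called. It measured 16.0, 15.4 and 15.6 FPKM in the wild type and 17.4, 21.8 and 22.0 FPKM in *bron-2*. Wild-type libraries lay within 1 FPKM of each other and below all mutant libraries. The means were 15.6 ± 0.309 and 20.4 ± 2.62 FPKM (SD, n = 3 each), for a log2 fold change of 0.35 (standard error 0.11, limma unadjusted p = 0.0121, Benjamini-Hochberg adjusted p = 0.368). *MYB34* was called in 12 of 13 alternatives, the exception being the one without *bron-2* replicate 2 (0.31, limma unadjusted p = 0.0518).

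*MYB51*, known mainly from shoots and from defence responses, had 3.49, 6.13 and 3.29 FPKM in the wild type and 3.28, 3.66 and 2.34 FPKM in *bron-2*. Wild-type replicate 2 was the highest by a wide margin, and the log2 fold change was -0.35, with a 95% interval from -0.86 to 0.17 (limma unadjusted p = 0.160). *MYB122*, which plays a smaller part, measured 4.23, 4.87 and 4.17 FPKM in the wild type, compared with 4.78, 5.81 and 5.54 FPKM in *bron-2*. Only *bron-2* replicate 1 fell within the wild-type range, the log2 fold change was 0.23 with a 95% interval from -0.04 to 0.50 (limma unadjusted p = 0.0821), and the gene passed the threshold without that library (0.30, limma unadjusted p = 0.0497). Each of these regulators has 3 exons on the plus strand. *MYB34* lies on chromosome 5 from 24494291 to 24496371, *MYB51* on chromosome 1 from 6389399 to 6391386 and *MYB122* on chromosome 1 from 27855578 to 27857598.

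The balance between *MYB34* and *MYB51* was compared inside each library. Their log2 ratio of FPKM + 1 was 1.92, 1.20 and 1.96 in the wild type and 2.10, 2.29 and 2.78 in *bron-2*. It was higher in every mutant library, by 0.70 on average (exact permutation test, two-sided, p = 0.1, and 0.2 after adjustment over 4 pairs). With a pseudocount of 0.1 the difference was 0.80, and without wild-type replicate 2, the library high in *MYB51*, it was 0.46. For *CYP79B2* over *CYP79B3* the log2 ratio was 0.09 ± 0.20 in the wild type and 0.52 ± 0.37 in *bron-2* (SD, n = 3 each), and the genotypes overlapped (difference 0.43, exact permutation test, two-sided, p = 0.2), the difference being 0.24 without *bron-2* replicate 2.

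**Figure D2:**
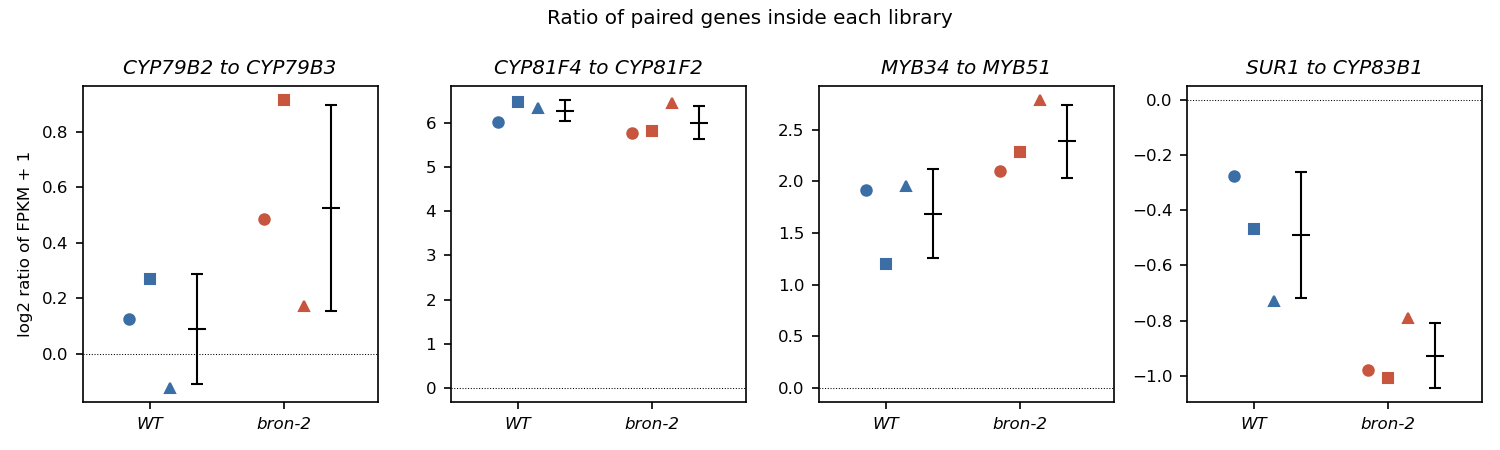
Log2 ratio of FPKM + 1 between paired genes inside each library (vertical axes, a separate scale for each pair, dotted line at equal levels), for the wild type (blue) and *bron-2* (red), with replicates 1, 2 and 3 as circle, square and triangle and the mean ± SD in black. The *bron-2* libraries lie above the wild type for *MYB34* to *MYB51* and below it for *SUR1* to *CYP83B1*, and the other pairs overlap.

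The other regulators and the transporters of glucosinolates were measured as a list of 8 genes, of which 1 was called higher and 0 lower, near the 9.79% of all tested genes that were called (median log2 fold change 0.10). The called gene was *GTR2*, a carrier that imports glucosinolates into cells, with 13.4, 15.6 and 16.7 FPKM in the wild type and 16.9, 23.3 and 20.7 FPKM in *bron-2*. *GTR2* had a log2 fold change of 0.39 (limma unadjusted p = 0.0230, Benjamini-Hochberg adjusted p = 0.425), and the call was lost without wild-type replicate 1 or *bron-2* replicate 2 or 3 (limma unadjusted p = 0.0613 to 0.0905). *GTR1*, its close relative and the highest gene of the list, measured 30.4 FPKM in the wild type and 35.9 FPKM in *bron-2*, with libraries that did not overlap and a limma unadjusted p of 0.0575. The *MYC2*, *MYC3* and *MYC4* genes, whose products act together with the MYB regulators, had log2 fold changes of 0.11, -0.03 and 0.02 (limma unadjusted p of at least 0.418).

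Genes of precursor supply were compared as lists for tryptophan and for sulfate. None of the 7 genes of tryptophan synthesis was called by limma at an unadjusted p under 0.05. For 2 of the 7, *PAT1* and *TSB2*, libraries did not overlap and were higher in *bron-2*, where 7.06% of all tested genes were. The median log2 fold change of the 7 genes was 0.07. *TSA1*, the tryptophan synthase subunit with the highest level, averaged 54.5 FPKM in the wild type and 57.2 FPKM in *bron-2*. Of the 7 genes that activate sulfate or make cysteine-derived donors, 1 was called, where 9.79% of all tested genes were. This was *GSH1*, the first enzyme of glutathione synthesis, with 136.4, 138.9 and 147.3 FPKM in the wild type and 166.5, 176.5 and 163.6 FPKM in *bron-2* (log2 fold change 0.26, limma unadjusted p = 0.0072, Benjamini-Hochberg adjusted p = 0.324), called in 13 of 13 alternatives. The aliphatic branch, which starts from methionine and uses *MYB28* as a regulator, was mostly at or near 0. *MYB29*, *MYB76*, *BCAT4* and *CYP79F1* were listed at 0 in all 6 libraries, and 4 of the 12 genes could be tested. Of these 4, 1 was called higher, where 4.03% of all tested genes were. That gene, *SOT18*, a sulfotransferase, was at 6.92 FPKM in the wild type and 9.01 FPKM in *bron-2* (log2 fold change 0.33, limma unadjusted p = 0.0424), and lost the call in 4 of the 6 analyses that left out a library, those without wild-type replicate 1 or 2 or *bron-2* replicate 2 or 3 (limma unadjusted p = 0.0654 to 0.152). The 3 genes of the camalexin branch were too low to test, the highest being *PAD3* at 0.882 FPKM in the wild type.

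*PYK10* was the highest member by far and the one that was lower in the mutant. Its values were 2490, 2562 and 2337 FPKM in the wild type and 1871, 2098 and 2084 FPKM in *bron-2*. All mutant libraries were below all wild-type libraries, with *bron-2* replicate 1 the lowest. The mean fell from 2463 ± 115 to 2018 ± 127 FPKM (SD, n = 3 each), or to 81.9% of the wild type, a log2 fold change of -0.29 (standard error 0.08, 95% interval from -0.47 to -0.11, limma unadjusted p = 0.0063, Benjamini-Hochberg adjusted p = 0.320). The call was kept in 13 of 13 alternatives. As a share of the summed FPKM, *PYK10* took 0.288% to 0.322% in wild-type libraries and 0.236% to 0.261% in *bron-2* libraries, and its rank among all genes went from 16 to 19 down to 25 to 31. *PYK10* lies on chromosome 3 from 2840477 to 2843781 (minus strand, 13 exons). Its 3′ end overlaps AT3G09250 on the plus strand, listed at 2.23 to 3.71 FPKM, over 0.469% of its 100-base windows.

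*PYK10* is stored with other proteins in ER bodies. Genes linked to ER bodies, among them a regulator and jacalin-type lectins, followed as a list of 11, of which 9 were tested. Of these, 3 were called lower, where 5.76% of all tested genes were, and 0 higher. The log2 fold change was below 0 in 8 of 9, compared with 8604 of all 17107 tested genes, and the median was -0.16. *BGLU21*, a β-glucosidase close to *PYK10*, had 1111, 1005 and 933 FPKM in the wild type and 762, 818 and 817 FPKM in *bron-2*. For *BGLU21* the log2 fold change was -0.34 (limma unadjusted p = 0.0038, Benjamini-Hochberg adjusted p = 0.289), with no overlap and a call in 13 of 13 alternatives. *BGLU22*, from the same cluster, had 450.3, 440.2 and 408 FPKM in the wild type and 315, 379 and 383 FPKM in *bron-2* (log2 fold change -0.27, limma unadjusted p = 0.0217).

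*PBP1*, a jacalin-type lectin that binds *PYK10* when cells are broken and the highest gene of the list, had 1309, 1367 and 1377 FPKM in the wild type and 995, 1219 and 1191 FPKM in *bron-2* (log2 fold change -0.26, limma unadjusted p = 0.0242). For *BGLU22* the call was lost without wild-type replicate 1 or 2 or *bron-2* replicate 1 (limma unadjusted p = 0.0569 to 0.0666), and for *PBP1* without wild-type replicate 2 or 3 or *bron-2* replicate 1 (limma unadjusted p = 0.0583 to 0.0712). *NAI2*, which is needed to form ER bodies, was 423, 419 and 429 FPKM in the wild type and 369, 386 and 394 FPKM in *bron-2*. Its libraries did not overlap, but its log2 fold change of -0.15 missed the threshold (limma unadjusted p = 0.0559). *NAI1*, the bHLH factor that activates these genes, was at 30.5 ± 9.28 FPKM in the wild type and 28.8 ± 3.03 FPKM in *bron-2* (SD, n = 3 each). Its libraries overlapped, with a log2 fold change of -0.05 (limma unadjusted p = 0.809). The membrane protein genes *MEB1* and *MEB2* and the lectin genes *JAL22* and *JAL31* overlapped as well. Their log2 fold changes were 0.01, -0.05, -0.32 and -0.16 (limma unadjusted p of at least 0.310). The summed level of the 11 genes was 3338 to 3469 FPKM in the wild type and 2587 to 2981 FPKM in *bron-2*, and *bron-2* replicate 1 was again the lowest.

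**Figure D3:**
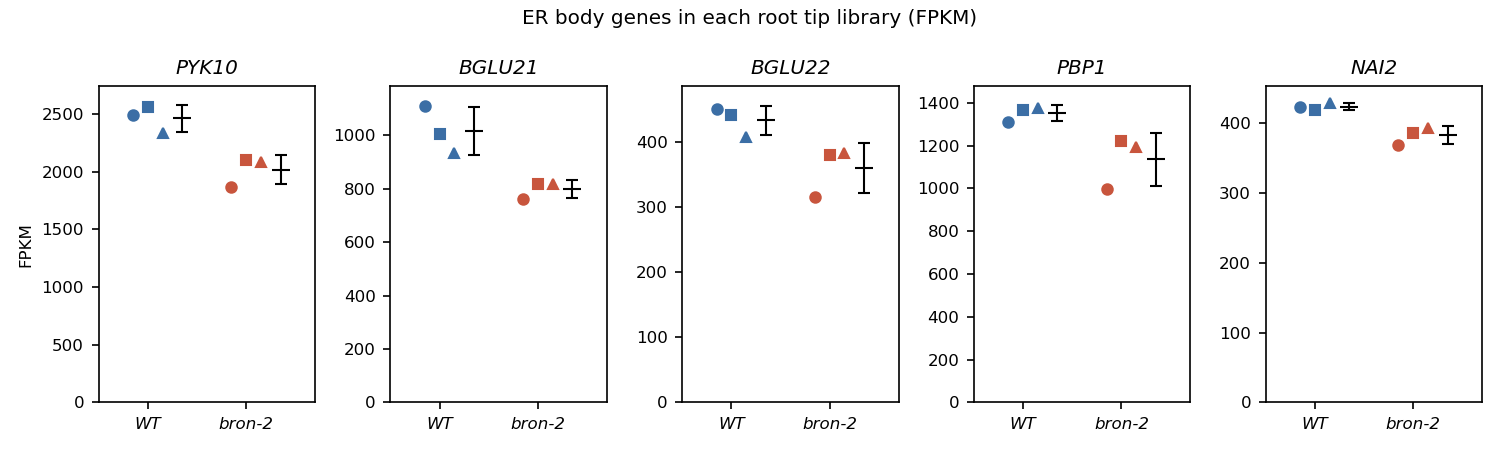
Level in FPKM (vertical axes from 0, a separate scale for each gene) of *PYK10* and 4 genes of the ER body list in the wild type (blue) and *bron-2* (red), with replicates 1, 2 and 3 as circle, square and triangle and the mean ± SD in black. In all 5 genes each *bron-2* library lies below each wild-type library, and *bron-2* replicate 1 is the lowest. The 4 are the tested genes of the list whose libraries did not overlap, all lower, where 8.67% of all tested genes were. *NAI1*, *MEB1*, *MEB2*, *JAL22* and *JAL31*, which are not shown, overlapped.

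The close β-glucosidase genes were compared for sequence that reads could not tell apart. The coding sequence of *PYK10* shares 83.4% of aligned bases with *BGLU21* and 83.1% with *BGLU22*, and the longest identical runs are 42 and 44 bases. *BGLU21* and *BGLU22* share 93.3%, with a longest run of 80 bases. All of these runs are shorter than the 100-base reads. No 100-base window of the *PYK10* transcript occurs in the annotated transcripts of other genes, except at its overlap with AT3G09250. Sequence outside annotated transcripts was not searched. The levels of *BGLU21* and *BGLU22* are uncertain as far as reads with a few mismatches were split between them.

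Other genes that break down glucosinolates gave mixed values. Of 12 listed genes 9 were tested, with 2 called lower (5.76% of all tested genes), 0 called higher (4.03% of all tested genes) and a median log2 fold change of -0.08. The root myrosinases *TGG4* and *TGG5*, classical glucosinolate-cleaving enzymes, were at 800.1 and 889 FPKM in the wild type, compared with 808 and 878 FPKM in *bron-2*, and their log2 fold changes were 0.01 and -0.02 (limma unadjusted p = 0.915 and 0.790). The shoot myrosinases *TGG1* and *TGG2* were listed at 0 in all libraries. *PEN2*, an atypical myrosinase that acts on indole glucosinolates in defence, had 73.2, 92.7 and 79.1 FPKM in the wild type and 70.3, 68.9 and 53.7 FPKM in *bron-2*, with a log2 fold change of -0.34 (limma unadjusted p = 0.0323) and no overlap. The nitrile-specifier gene *NSP1* had a log2 fold change of -0.55 (limma unadjusted p = 0.0370), though its libraries overlapped, with 39.6 to 69.7 FPKM in the wild type and 29.1 to 43.3 FPKM in *bron-2*. *PEN2* lost its call without wild-type replicate 2 or *bron-2* replicate 3 (limma unadjusted p = 0.0963 to 0.119), and *NSP1* without wild-type replicate 2 or 3 or *bron-2* replicate 1 or 2 (limma unadjusted p = 0.0653 to 0.126).

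Over all 70 genes of these lists, 54 were tested and 10 were called, 5 in each direction, which is 18.5% of those tested against 9.79% of all genes. The lists were chosen with earlier results of these data known, so these shares are a description and not a test. The 5 higher ones were *GSTF9*, *UGT74B1*, *GSH1*, *SOT18* and *GTR2*, and the 5 lower ones *BGLU21*, *BGLU22*, *PBP1*, *PEN2* and *NSP1*. None passed 0.05 after Benjamini-Hochberg adjustment in limma (smallest adjusted p = 0.239). The count depended on single libraries and was 5 without wild-type replicate 2 and 6 without *bron-2* replicate 2. Of the 10 calls, those of *GSTF9*, *GSH1* and *BGLU21* were kept with each library left out, and the other 7 were lost without at least 1 library.

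**Figure D4:**
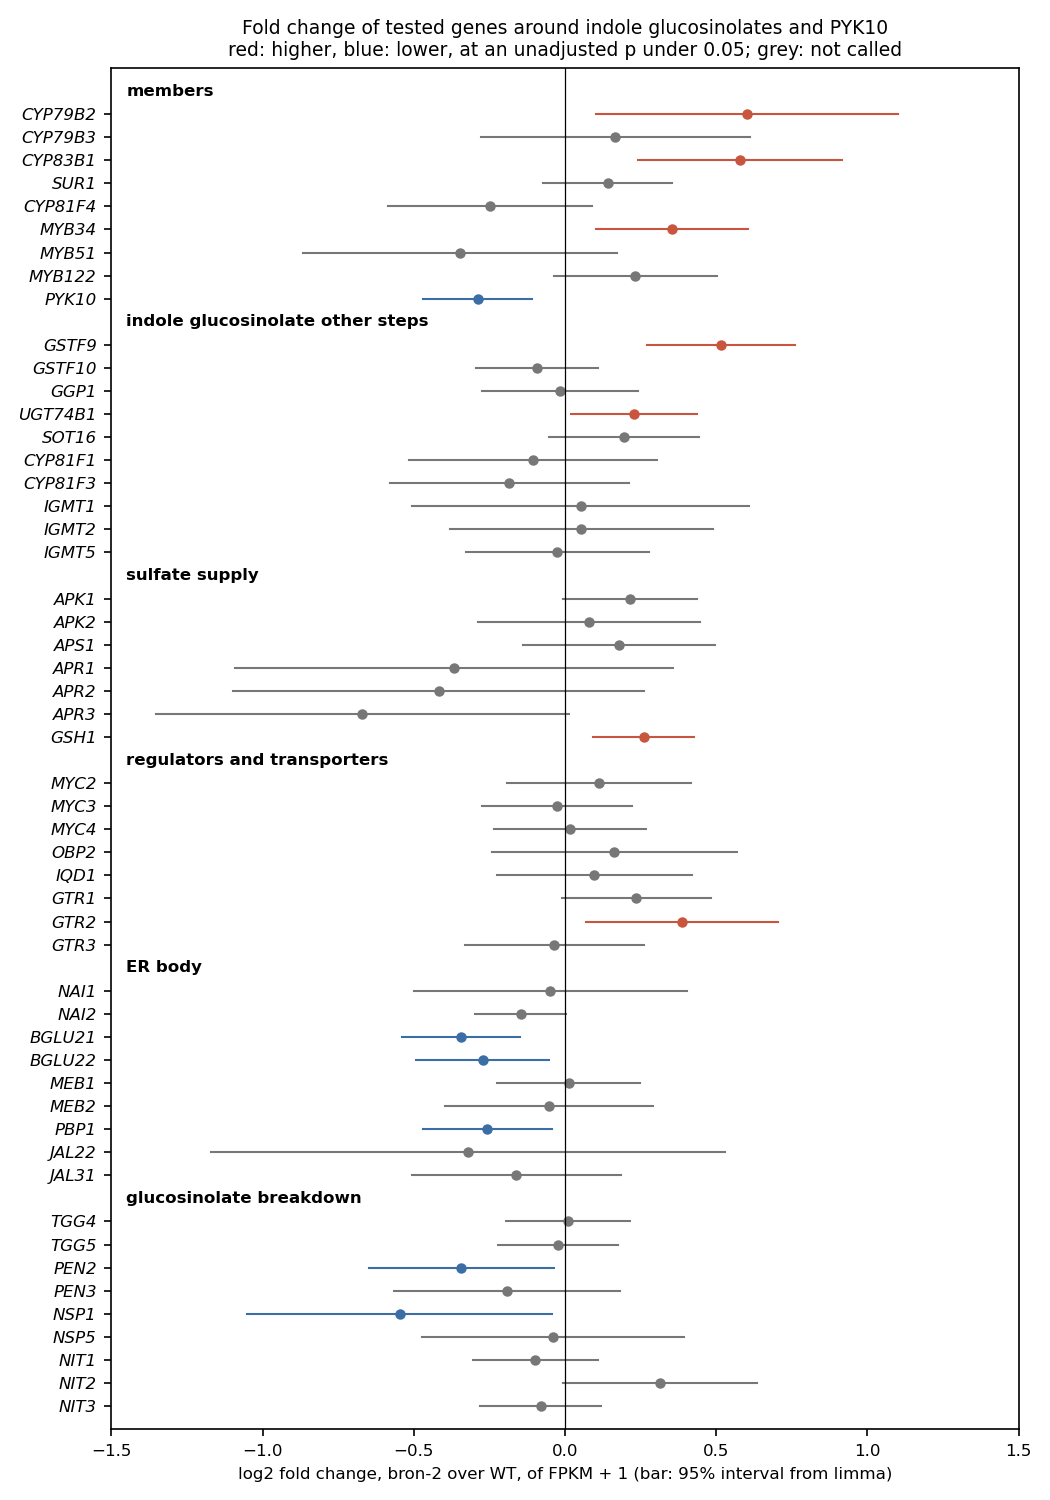
Log2 fold change of FPKM + 1 in *bron-2* over the wild type (horizontal axis, point) with its 95% interval from limma (bar), for the tested members and 5 of the related lists. Red marks genes called higher and blue genes called lower at an unadjusted p under 0.05. Above 0 lie the called genes of the lists of other indole glucosinolate steps (2), sulfate supply (1) and regulators and transporters (1). Below 0 lie those of the ER body (3) and breakdown (2) lists. Of all tested genes, 4.03% were called higher and 5.76% lower. In each of the 5 lists the genes that were not called lie on both sides of 0.

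The genes whose levels ran most like those of *PYK10* over the 6 libraries, by Pearson's r of log2(FPKM + 1) among 17106 other genes, were AT1G18850 (r = 0.996), the nucleolar protein gene *NOP56* (r = 0.993) and the clock gene *CCA1* (r = 0.991). *CCA1* was at 3.59 to 4.67 FPKM in the wild type, compared with 1.13 to 1.90 FPKM in *bron-2*. For *CYP79B2* they were AT5G08750 (r = 0.983), the zinc-finger gene *IDD1* (r = 0.983) and AT5G18780 (r = 0.982). These values are a description over 6 points that share libraries and the genotype difference, and each was the highest of many.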

How the data were processed

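Root tips of the Columbia-0 wild type and *bron-2* were profiled by RNA-seq with 3 libraries per genotype. The authors sequenced 100-base single-end reads, mapped them to TAIR10 with Cufflinks (version not given in the sources used here) and deposited FPKM, scaled by transcript length and mapped fragments, for 33560 genes, with 0 columns left unused here. Multi-mapped reads and strand are not described. One series of columns carries a line code in place of *bron-2* and was assigned by its table and by exclusion. The authors' PoissonSeq test needs counts, which FPKM are not. Genes averaging 1 FPKM or more were therefore tested as log2(FPKM + 1), using limma 3.58.1 (R 4.3.3) with lmFit and eBayes with a trend, two-sided, and Benjamini-Hochberg adjustment over all tested genes. This scale understates changes of low genes. Log2 ratios of gene pairs were compared by exact permutation tests. The fit was tested on simulated data.

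Members and gene lists were chosen with earlier results of these data known. Named are all members, called genes of the lists, the highest gene of each list and, for *PYK10* and *CYP79B2*, the 3 most similar genes. *NAI1*, *NAI2*, *MEB1*, *MEB2*, *JAL22*, *JAL31*, the root apex markers, the MYC genes, TGG myrosinases, *PAT1*, *TSB2* and genes listed at 0 were also named, after their values had been seen. The alternatives changed the pseudocount to 0.1, dropped the filter or raised it to 5 FPKM, or used median log ratio scaling, quantile normalization, eBayes without trend, a replicate block and leaving out each library. Sequences, coordinates and motifs came from TAIR10.1, read with Python 3.11.15 and Biopython 1.88, and 32826 gene identifiers were found there. Figures were drawn with matplotlib 3.10.9.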

Additional observations from a re-analysis of the deposited data

How the results depend on the processing

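Of the members, 4 were called in the main analysis and 3 to 5 when single libraries were left out, and 0 passed the adjusted threshold in any alternative (limma). No log2 fold change of a tested member changed sign. With a mean of at least 5 FPKM *CYP79B2* was not tested, and 7 genes of the whole table passed the adjusted threshold in place of 14. With each library left out, 8 to 33 genes passed the adjusted threshold (8 without wild-type replicate 2 or *bron-2* replicate 1, 27 without wild-type replicate 1 and 33 without wild-type replicate 3), 1056 to 2298 the unadjusted one, and 5 to 12 genes of the related lists were called. The counts over all genes were 1056 without *bron-2* replicate 2 and 1061 without wild-type replicate 2, against 1674. The replicate block, in which the replicate number is a term of the fit, called 4 members and 17 genes of the related lists in place of 10, and 2253 genes in all, 16 of them at the adjusted threshold. Deviations of libraries with the same number correlated at r = 0.12, -0.01 and 0.19. By these correlations, the libraries numbered 1 were each other's closest match between genotypes, as were those numbered 3, but not those numbered 2. The labels state no pairing, and the numbers were not taken as one in the main fit. Whether libraries with the same number share an effect was not tested. Of all called genes, 58.8% were lower, against 55.7% after median log ratio scaling and 52.9% after quantile normalization, and both scalings moved the median of all genes by under 0.01. *CYP81F2* was under the filter of 1 FPKM and entered only the fit without a filter. The number of reads behind each value is unknown, so counting error could not be separated from the spread between libraries.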

Other observations

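*TSA1*, the homologue of *NAI2* at AT1G52410 (not the tryptophan synthase gene of the same name), was under the limit for testing. It was listed at 0.966, 1.15 and 1.33 FPKM in the wild type, compared with 0.551, 0.621 and 0.645 FPKM in *bron-2*, without overlap. The 3 APS reductase genes, which pass activated sulfate on to cysteine, varied widely between libraries, and each was lowest in replicate 3 of both genotypes. *APR3* measured 52.3, 47.4 and 25.9 FPKM in the wild type and 32.3, 26.8 and 17.6 FPKM in *bron-2*. *APR3* was at 41.9 ± 14.0 FPKM in the wild type and 25.6 ± 7.44 FPKM in *bron-2* (SD, n = 3 each), with overlapping libraries and a log2 fold change of -0.67 (limma unadjusted p = 0.0532). *NIT2*, a nitrilase that acts downstream of indole nitriles, was at 51.6 FPKM in the wild type and 65.2 FPKM in *bron-2*, with overlap and a log2 fold change of 0.31 (limma unadjusted p = 0.0533). These genes were chosen after their values were seen.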
